A study of Mus musculus with 11 samples.

Results

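The gastric and foregut epithelium genes described here are 10 genes chosen by name: Aqp5, Onecut2, Tff1, Tff2, Muc5ac, Muc6, Anxa10, Vsig1, Cldn18 and Ctse. All 10 have a row among the 23224 genes of the count table, and 8 of them had enough reads to enter the tests, which covered 13720 genes. Muc5ac and Muc6 had too few reads to be tested and are described by their counts. The members were chosen by gene name and not by their values in one comparison, although the choice was made with earlier results of these data known.

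Sequenced poly(A) RNA came from mouse colon cancer organoids of the AKP genotype, in 11 libraries. These are cultures of transformed colon epithelium, and AKP is the labels' name for their set of cancer gene alterations. All groups are AKP. 3 libraries came from organoids re-derived from primary tumours that naive AKP organoids had formed in the colon of RAG2KO mice, which lack T and B cells, and 3 from tumours formed in the same way in immunocompetent C57Bl6 mice. The tumour cultures were passaged until cancer cells alone were left, so the tumour groups are cultures after growth in a mouse and not tumour tissue. 1 library came from naive AKP organoids carrying a constitutive lentiviral SOX17 overexpression construct (SOX17OE constitutive) and 1 from naive organoids with a doxycycline-inducible one (SOX17OE inducible). For the inducible line the sources used here do not state whether doxycycline was given. The last 3 libraries were naive AKP organoids that had never been transplanted. Nothing in the sources says that replicates of one group were separate mice or separate cultures. Each tumour-derived library has its own number in its label, but what that number stands for is not stated. The p-values therefore measure the spread between these samples, which may be technical.

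Levels are given in CPM, the usual count unit relative to library size, with library sizes scaled by TMM. Library totals were 14109121 to 22154408 counts, so that 3 counts, the limit below which a count of 0 cannot be told from a low level, correspond to 0.131 to 0.214 CPM. A gene was called when its edgeR quasi-likelihood test gave a Benjamini-Hochberg adjusted p under 0.05 over all 13720 genes. Colon and epithelial identity was checked first. The 6 epithelial markers, among them the adhesion gene Epcam and the keratin gene Krt8, summed to 9260 to 10074 CPM in RAG2KO, 8599 to 10843 CPM in C57Bl6, 6227 CPM in SOX17OE constitutive, 7835 CPM in SOX17OE inducible and 9135 to 10884 CPM in naive libraries. The 14 intestinal identity genes with a row summed to 1650 to 2489 CPM in RAG2KO, 1434 to 2033 CPM in C57Bl6, 806 CPM in SOX17OE constitutive, 2635 CPM in SOX17OE inducible and 2896 to 3177 CPM in naive libraries. Of these, Fabp1, a fatty acid binding protein of enterocytes, was at 0 in every library. Fibroblast markers summed to at most 10.2 CPM and immune markers to at most 16.2 CPM in any library. Single markers of other cell types passed against naive. Acta2, a smooth muscle actin of myofibroblasts, averaged 0.933 CPM in RAG2KO, 0.925 CPM in C57Bl6 and 0.117 CPM in naive organoids (adjusted p = 0.0111 in RAG2KO and 0.0171 in C57Bl6). Csf1r, a macrophage receptor, passed in RAG2KO (0.71 CPM against 0.0476 CPM in naive, adjusted p = 0.0336). Cd74, a chaperone of antigen presentation, passed in C57Bl6 (3.02 CPM against 0.5 CPM in naive, adjusted p = 0.009). Tek, which encodes a receptor of angiopoietins, passed in C57Bl6 (1.01 CPM against 0.0556 CPM in naive, adjusted p = 0.0249). Of the tested markers, 1 of 4 fibroblast and 1 of 4 immune markers rose in each tumour group, and 1 of 3 endothelial markers in C57Bl6. Over all tested genes, 16% rose in RAG2KO and 9.5% in C57Bl6 against naive. The Acta2 call ended without naive replicate 2 in RAG2KO (0.0556), and without naive replicate 1 (0.0731) or 2 (0.0832) in C57Bl6. The Csf1r call ended without naive replicate 2 (0.119) or 3 (0.107). The Tek call ended without C57Bl6 replicate 3 (0.0757) or on leaving out any naive library (0.0582 to 0.0948). The part of these markers in the results below was not tested. Endothelial markers summed to 36 CPM in SOX17OE constitutive and at most 7.05 CPM elsewhere. In SOX17OE constitutive 26.0 CPM of that sum was Tek.

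The lining of the stomach is made of mucous surface cells, gland cells that secrete another mucin, acid-secreting parietal cells and pepsinogen-secreting chief cells. Surface and gland mucous cells make trefoil peptides, small secreted proteins that bind mucins and help to repair the epithelium, and the tight junctions between gastric cells contain a claudin that the intestine normally lacks. The stomach and the organs that bud from the foregut arise from anterior endoderm, whereas the intestine is set apart by the CDX factors, and genes of gastric type are known to appear in some colorectal tumours.

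Organoids re-derived from tumours had more transcript than naive organoids for a water channel, a foregut transcription factor, a trefoil peptide and an aspartic protease of the stomach. Against naive organoids, 4 of the 10 members (Aqp5, Onecut2, Tff1 and Ctse) rose in RAG2KO organoids, where 16% of all tested genes rose. In C57Bl6 organoids 5 of the 10 (Aqp5, Onecut2, Tff1, Ctse and Cldn18) rose, where 9.5% of all tested genes rose. The Cldn18 call rests on few reads: C57Bl6 replicate 1 alone reached the filter's 10 counts, so the gene entered the test through the group where it was highest, and the number that rose was 4 with a filter of 1 CPM in 3 libraries or in a fit of the compared groups alone. Of the 8 members tested, 0 fell in either comparison by edgeR, DESeq2 or limma voom or at an unadjusted p under 0.05, where 13.3% and 5.85% of all tested genes fell. Summed over the naive libraries, Tff2, Anxa10, Cldn18, Tff1 and Aqp5 had 0, 2, 3, 7 and 8 counts. These genes had little or no room to fall, so the 0 says little about them. Tff2 and Anxa10, like Cldn18, reached 10 counts only in tumour-derived libraries. Both comparisons use the same 3 naive libraries. The gastric mucins Muc5ac and Muc6 had at most 10 counts in any library. In cultures, a share of cells that make a transcript and the amount made per cell cannot be told apart.

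**Figure D1:**
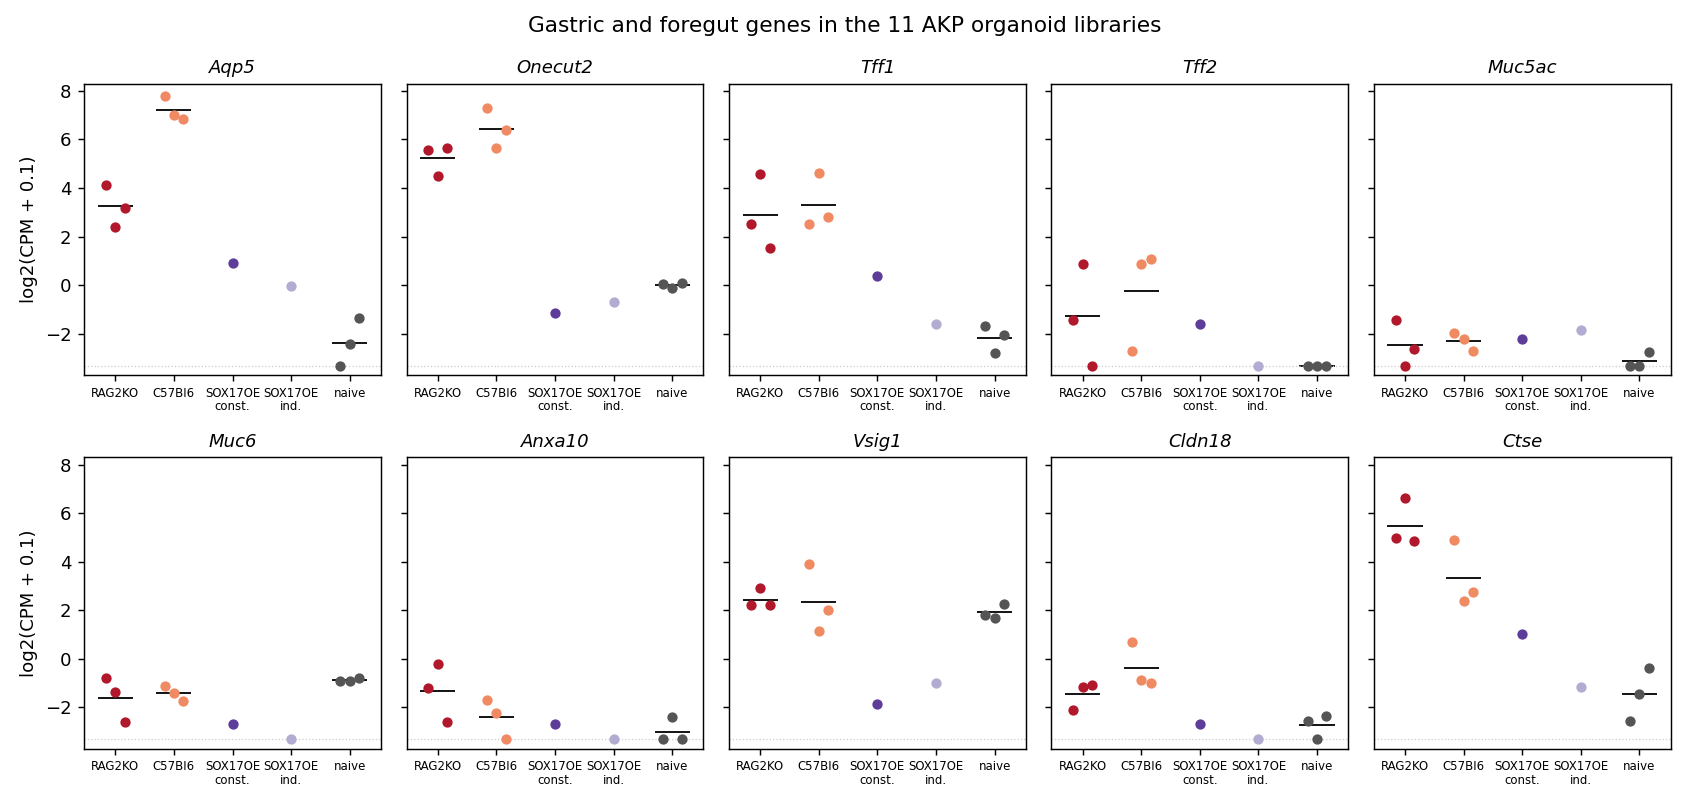
Level of each of the 10 genes in the 11 libraries, as log2(CPM + 0.1) on the vertical axis, with groups on the horizontal axis, 1 point per library and a line at the mean of the log values where a group has 3 libraries; the dotted line marks 0 counts. Aqp5 and Onecut2 stand highest in C57Bl6 and RAG2KO libraries, Ctse highest in RAG2KO, and Muc5ac and Muc6 lie near the bottom in every group.

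Aqp5 encodes a water channel of secretory glands, lung and pyloric stomach, and among the members it had the highest level per length in C57Bl6 organoids. Its level was 17.4, 5.20 and 8.98 CPM in the 3 RAG2KO libraries, 220.2, 129 and 113 CPM in the 3 C57Bl6 libraries, and 0, 0.0876 and 0.286 CPM in the 3 naive libraries. All 6 tumour-derived libraries lay above all naive libraries, and every C57Bl6 library lay above every RAG2KO library. Against naive, the log2 fold change was 6.18 (SE 0.74, adjusted p = 7.8e-04) in RAG2KO and 10.06 (SE 0.72, adjusted p = 6.02e-05) in C57Bl6. The naive libraries together held 8 Aqp5 counts, and without naive replicate 3 these values were 7.42 and 11.30. Set directly against each other, RAG2KO organoids averaged 10.5 ± 6.24 CPM and C57Bl6 organoids 154 ± 57.7 CPM (SD, n = 3 each), a log2 difference of -3.88 (SE 0.47, adjusted p = 0.00252). Its neighbours on mouse chromosome 15, the kidney water channel gene Aqp2 and the related Aqp6, were at or near 0. Aqp2 had 2 counts in all C57Bl6 libraries and 0 elsewhere, and Aqp6 had 0 counts in every library.

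The promoter of Aqp5 is shown because Aqp5 had the largest log2 change among the members. It is the stretch of 300 bases around the start of transcription in RefSeq (GRCm38.p6, chr15:99590778-99591077, plus strand), read 5′ to 3′.
Aqp5 promoter: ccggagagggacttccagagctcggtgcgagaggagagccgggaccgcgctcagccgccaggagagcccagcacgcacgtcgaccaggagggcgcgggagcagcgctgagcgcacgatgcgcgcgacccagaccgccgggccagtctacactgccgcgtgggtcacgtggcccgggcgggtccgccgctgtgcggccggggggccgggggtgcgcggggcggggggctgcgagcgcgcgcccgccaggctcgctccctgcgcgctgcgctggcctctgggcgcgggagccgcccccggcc
Of its bases 79.7% were G or C, with 46 CpG, against medians of 52.7% and 7 CpG over 32851 mouse promoters of the same length. Capitals mark matches on either strand to 6 short motifs, and the Aqp5 window held none of them. Over all promoters of this length, the SOX letters ATTGT occurred in 31% and the FOX letters TGTTTAC in 3.65%. The letters for GATA factors, AGATAA, occurred in 11.2%, those for ONECUT factors, ATTGAT, in 7.54%, and those for CDX factors, TTTATG, in 11.9%. The TEAD letters GGAATG occurred in 14.7%. None of the matches found in the members' promoters overlapped another.

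Onecut2 encodes a cut-homeodomain transcription factor active in the developing liver, pancreas and foregut. It had 47.3, 22.5 and 50.1 CPM in RAG2KO libraries, 155, 49.5 and 83.5 CPM in C57Bl6 libraries, and 0.929, 0.833 and 0.953 CPM in naive libraries. The lowest tumour-derived library was far above the highest naive one, while the RAG2KO and C57Bl6 libraries overlapped. Against naive, the log2 fold change was 5.46 (SE 0.54, adjusted p = 3.08e-04) in RAG2KO and 6.73 (SE 0.55, adjusted p = 1.23e-04) in C57Bl6. RAG2KO organoids averaged 40.0 ± 15.2 CPM and C57Bl6 organoids 96.1 ± 54.1 CPM (SD, n = 3 each), a log2 difference of -1.27 (SE 0.40, adjusted p = 0.0485). That last call ended when any of 8 of the 9 naive and tumour-derived libraries was left out (adjusted p 0.0695 to 0.139), with C57Bl6 replicate 2 the exception, and without C57Bl6 replicate 1 the difference was -0.73. It also ended with DESeq2 size factors (0.0513), upper quartile scaling (0.0604), limma voom (0.0525), no filter (0.0856) and a fit of the compared groups alone (0.112). Its neighbour Fech, the last enzyme of haem synthesis, averaged 37.4 CPM in RAG2KO, 39.1 CPM in C57Bl6 and 39.2 CPM in naive organoids and passed in neither comparison.

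The trefoil genes Tff3, Tff2 and Tff1 lie side by side on mouse chromosome 17. Tff1 encodes the trefoil peptide of surface mucous cells and had 5.59, 23.5 and 2.81 CPM in RAG2KO libraries, 5.55, 24.7 and 6.87 CPM in C57Bl6 libraries, and 0.214, 0.0438 and 0.143 CPM in naive libraries. All tumour-derived libraries were above all naive ones, and in each tumour group replicate 2 was the highest. The naive libraries together held 7 Tff1 counts, at most 3 in each. The log2 fold change against naive was 6.35 (SE 1.15, adjusted p = 0.00466) in RAG2KO, and 5.01 without RAG2KO replicate 2. It was 6.57 (SE 1.15, adjusted p = 0.00576) in C57Bl6, and 5.57 without C57Bl6 replicate 2. With limma voom neither passed (adjusted p = 0.0589 in RAG2KO and 0.0687 in C57Bl6). Between the tumour groups Tff1 did not pass, with a log2 difference of -0.21 (SE 0.78, adjusted p = 0.861). An antisense gene, Gm15318, overlaps Tff1; the kit marks strand, but whether the counting used it is not stated, so reads of the pair cannot be told apart.

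Tff2 encodes the trefoil peptide of mucous neck and antral gland cells. It had 4, 30 and 0 counts in RAG2KO libraries, 1, 31 and 40 counts in C57Bl6 libraries, and 0 in each naive library. One RAG2KO library was as low as naive, and 3 tumour-derived libraries held 101 of the 106 tumour-derived counts. Against a floor of 3 counts per naive library, the RAG2KO mean of 0.674 CPM was at least 4.13-fold higher and the C57Bl6 mean of 1.27 CPM at least 7.8-fold higher. Without RAG2KO replicate 2 the RAG2KO mean lay under that floor. Neither comparison passed (adjusted p = 0.0831 in RAG2KO and 0.076 in C57Bl6), although DESeq2 called both (0.0163 and 0.00784). Tff3, the trefoil peptide of intestinal goblet cells, averaged 0.740 CPM in RAG2KO, 0.0885 CPM in C57Bl6 and 0.812 CPM in naive organoids. Its difference passed neither in RAG2KO (adjusted p = 0.914) nor in C57Bl6 (0.057), although DESeq2 called Tff3 lower in C57Bl6. Every C57Bl6 library was below every naive library for Tff3.

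Muc5ac and Muc6 encode the gel-forming mucins of gastric surface and gland cells. Muc5ac had 4, 0 and 1 counts in RAG2KO, 3, 2 and 1 in C57Bl6, 2 in SOX17OE constitutive, 3 in SOX17OE inducible and 0, 0 and 1 in naive libraries. Muc6 had 7, 5 and 1 counts in RAG2KO, 7, 5 and 4 in C57Bl6, 1 in SOX17OE constitutive, 0 in SOX17OE inducible and 6, 10 and 10 in naive libraries. Muc5ac was within a few reads of 0 in every library, and Muc6 averaged 0.275 CPM in RAG2KO, 0.283 CPM in C57Bl6 and 0.448 CPM in naive libraries. In the fit without a filter neither passed against naive in RAG2KO (adjusted p = 0.319 for Muc5ac and 0.547 for Muc6) or C57Bl6 (0.383 for Muc5ac and 0.619 for Muc6). In CPM every C57Bl6 library was below every naive library for Muc6, although their counts overlapped (4 to 7 and 6 to 10). For Muc5ac, C57Bl6 replicate 3 and naive replicate 3 each held 1 count, so these groups touched. RAG2KO overlapped naive for both genes.

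Ctse encodes cathepsin E, an aspartic protease abundant in gastric surface cells. It had 31.0, 98.3 and 29.1 CPM in RAG2KO libraries, 29.4, 5.11 and 6.72 CPM in C57Bl6 libraries, and 0.0715, 0.263 and 0.667 CPM in naive libraries. Again no naive library reached a tumour-derived one. The RAG2KO and C57Bl6 libraries overlapped only through C57Bl6 replicate 1. The log2 fold change against naive was 7.18 (SE 1.02, adjusted p = 0.00162) in RAG2KO and 5.24 (SE 0.99, adjusted p = 0.00816) in C57Bl6. Without RAG2KO replicate 2 the RAG2KO value was 6.37, and without naive replicate 3 it was 8.09. In C57Bl6, leaving out replicate 1 of that group gave 4.02, leaving out naive replicate 3 gave 6.15, and limma voom ended the call (adjusted p = 0.1). RAG2KO organoids averaged 52.8 ± 39.4 CPM and C57Bl6 organoids 13.8 ± 13.6 CPM (SD, n = 3 each), a log2 difference of 1.94 (SE 0.73) that did not pass (adjusted p = 0.0799). It passed with limma voom (2.15, adjusted p = 0.0353) and without C57Bl6 replicate 1 (3.16, adjusted p = 0.0148).

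Cldn18 encodes the claudin of gastric tight junctions and, from another start, of lung epithelium. It had 2, 6 and 6 counts in RAG2KO libraries, 29, 8 and 8 in C57Bl6 libraries, and 1, 0 and 2 in naive libraries. The RAG2KO counts touched the naive ones, but in CPM the 3 groups did not overlap. The C57Bl6 to naive ratio was 15.3 (95% counting interval 4.91 to 76.9; log2 fold change 3.74, SE 0.98, adjusted p = 0.0292). That call ended when any naive library was left out (adjusted p 0.059 to 0.105), and the ratio was 8.19 without C57Bl6 replicate 1, 9.25 without naive replicate 2 and 29.2 without naive replicate 3. In RAG2KO the ratio was 5.62 (1.57 to 30.5), or 3.40 without naive replicate 2 and 10.7 without naive replicate 3, and the comparison did not pass (adjusted p = 0.12). The gene lies beside Dzip1l, a ciliary gene, which had 26 counts in RAG2KO, 511 in C57Bl6 and 0 in naive libraries, summed over each group. Dzip1l was at least 55.8-fold higher in C57Bl6 than in naive organoids, taking 3 counts in each naive library as the floor (edgeR adjusted p = 0.00195). Dzip1l had reads only in tumour-derived libraries, so it entered the test through the groups where it was high. Gm16004, an antisense gene, overlaps Cldn18, and its reads cannot be told apart in the same way. Intervals and floors cover counting error only.

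The promoters of Cldn18 and Vsig1 are shown because 2 starts serve different tissues in the one and because a SOX motif occurs in the other. The Cldn18 starts are on the minus strand of chromosome 9 (GRCm38.p6, chr9:99717218-99717517 upstream and chr9:99710014-99710313 downstream), and the Vsig1 start on the plus strand of X (chrX:140907358-140907657). All are from RefSeq, read 5′ to 3′ with motif matches in capitals.
Cldn18 upstream promoter: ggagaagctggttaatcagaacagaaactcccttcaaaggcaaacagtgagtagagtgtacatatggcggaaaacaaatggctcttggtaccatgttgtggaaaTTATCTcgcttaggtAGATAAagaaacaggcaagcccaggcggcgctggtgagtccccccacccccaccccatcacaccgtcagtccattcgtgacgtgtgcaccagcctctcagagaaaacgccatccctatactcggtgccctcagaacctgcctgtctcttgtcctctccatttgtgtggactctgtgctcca
Cldn18 downstream promoter: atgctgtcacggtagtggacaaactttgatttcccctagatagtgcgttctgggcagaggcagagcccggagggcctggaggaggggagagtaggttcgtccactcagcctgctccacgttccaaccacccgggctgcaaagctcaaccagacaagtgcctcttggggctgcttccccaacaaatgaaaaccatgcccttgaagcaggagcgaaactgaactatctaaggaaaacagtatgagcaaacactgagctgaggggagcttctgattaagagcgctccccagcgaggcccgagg
Vsig1 promoter: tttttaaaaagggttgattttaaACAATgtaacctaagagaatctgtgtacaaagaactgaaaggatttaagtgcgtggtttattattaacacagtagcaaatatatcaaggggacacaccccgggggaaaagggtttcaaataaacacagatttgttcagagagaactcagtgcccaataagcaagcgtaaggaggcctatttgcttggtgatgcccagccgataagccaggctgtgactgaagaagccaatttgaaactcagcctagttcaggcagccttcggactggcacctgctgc
In Cldn18 the upstream start is known for the lung transcript and the downstream one for the stomach transcript, and counts per gene do not separate them. Its upstream promoter held AGATAA 146 bases before the start on the other strand, and again 131 bases before it. Its downstream promoter held none of the 6 motifs. In Vsig1 the SOX letters stood 227 bases before the start on the other strand. Of 6 promoters found for 5 members, the SOX letters were in 1, and the Muc6 promoter held AGATAA while the Anxa10 promoter held no match. These matches are letters in a window and were not tested for binding.

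Vsig1 encodes a junctional adhesion protein of stomach epithelium and was the only member above 1 CPM in every naive library. Its level was 4.52, 7.47 and 4.49 CPM in RAG2KO libraries, 14.7, 2.13 and 3.89 CPM in C57Bl6 libraries, and 3.36, 3.16 and 4.72 CPM in naive libraries. The groups overlapped throughout, and C57Bl6 replicate 1 stood above the rest. Against naive the log2 fold change was 0.55 (SE 0.61, adjusted p = 0.523) in RAG2KO and 0.88 (SE 0.61, adjusted p = 0.364) in C57Bl6. Without C57Bl6 replicate 1 the C57Bl6 value was -0.31. Anxa10, an annexin of gastric epithelium, had 5, 13 and 1 counts in RAG2KO, 4, 2 and 0 in C57Bl6, and 0, 2 and 0 in naive libraries. RAG2KO replicate 2 held most of the counts, and each tumour group overlapped naive. The ratio to naive was 11.4 in RAG2KO (95% counting interval 2.76 to 101) and 3.06 in C57Bl6 (0.547 to 31). The RAG2KO ratio was 5.62 without RAG2KO replicate 2. Leaving out naive replicate 3 gave 7.29, and with naive replicate 2 left out, where naive held 0 counts, the lower bound was 2.16. The C57Bl6 ratio ran from 1.54 without C57Bl6 replicate 1 to 4.70 without C57Bl6 replicate 3. Leaving out naive replicate 3 gave 1.95, and with naive replicate 2 left out the C57Bl6 mean lay under the floor. Neither passed (adjusted p = 0.0917 in RAG2KO and 0.551 in C57Bl6).

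**Figure D2:**
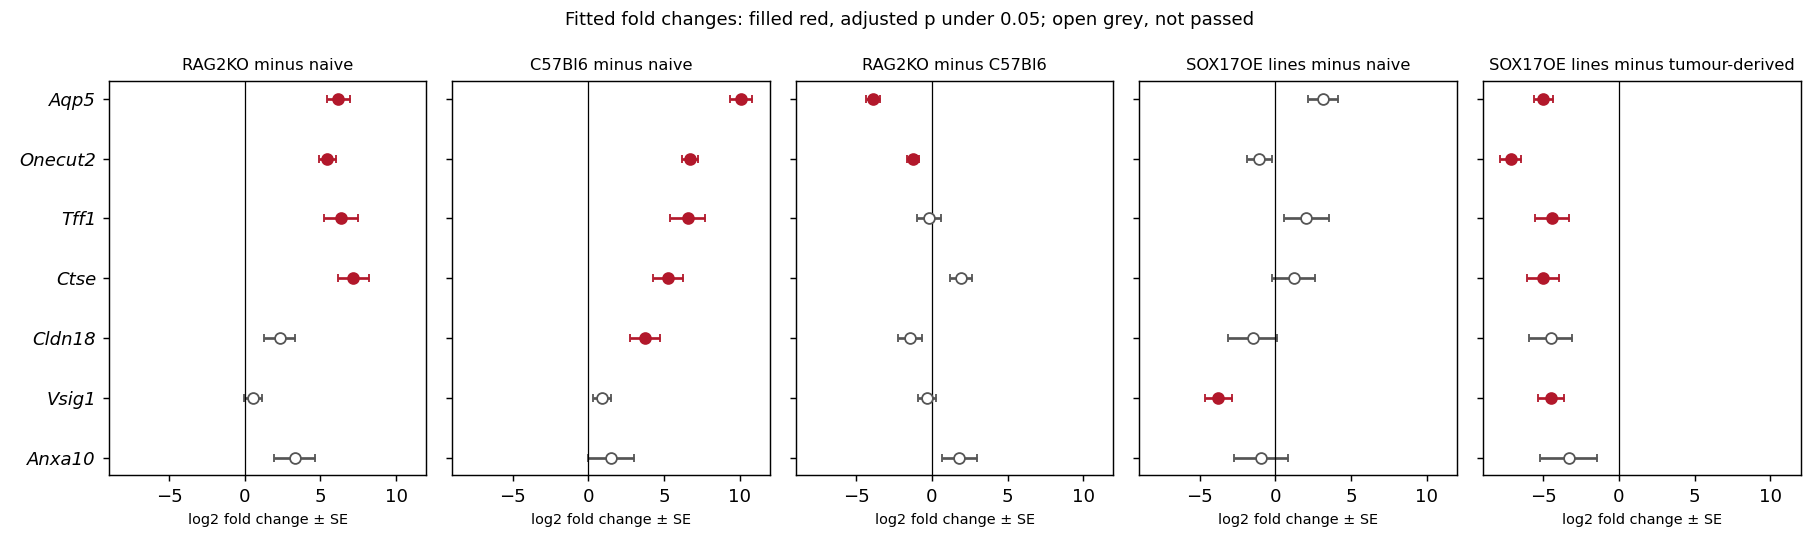
Fitted log2 fold change with its standard error for 7 tested members in 5 comparisons, with filled red points for adjusted p under 0.05 and open grey points for those that did not pass; Tff2 is left out because it is at 0 in naive libraries. Aqp5, Onecut2, Tff1 and Ctse lie right of 0 in both tumour-derived comparisons with naive and left of 0 in SOX17OE lines against tumour-derived organoids.

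Of all tested genes 24% were called between the tumour groups. There, 2 of the 10 members (Aqp5 and Onecut2) were lower in RAG2KO than in C57Bl6 organoids, where 12.2% of all tested genes were lower. No member was called higher in RAG2KO by edgeR or by DESeq2, where 11.8% of tested genes were higher, while limma voom called 1 (Ctse) and 1 passed at an unadjusted p under 0.05. Per kilobase of exon, the order of mean levels differed between the groups. In RAG2KO organoids Ctse (16.7 CPM per kb) and Tff1 (15.1) stood first, followed by Aqp5 (4.05), Onecut2 (2.46), Vsig1 (1.98) and Tff2 (1.15). In C57Bl6 organoids Aqp5 (59.4 CPM per kb) stood first, followed by Tff1 (17.6), Onecut2 (5.92), Ctse (4.34), Vsig1 (2.5) and Tff2 (2.18). Ctse and Tff1 in RAG2KO, and Onecut2 and Ctse in C57Bl6, lie closer to each other than the spread between libraries of one group, which was up to 8.38-fold for Tff1 in RAG2KO and 5.77-fold for Ctse in C57Bl6.

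The share of counts from Rn45s, the ribosomal RNA precursor, moved with the RAG2KO group. It was 6.56 to 8.54% in RAG2KO, 2.21 to 3.77% in C57Bl6, 6.39% in SOX17OE constitutive, 3.71% in SOX17OE inducible and 2.42 to 4.99% in naive libraries. RAG2KO libraries overlapped neither C57Bl6 nor naive libraries in this share, so group and share cannot be told apart. With the log2 share as a covariate, Aqp5 in RAG2KO minus naive was 6.15 (adjusted p = 0.0623), Ctse 4.89 (0.186) and Tff1 8.03 (0.139), and Onecut2 alone of the members passed (4.31, adjusted p = 0.0496). In RAG2KO minus C57Bl6, the covariate gave -3.91 for Aqp5 (adjusted p = 0.507) and -2.53 for Onecut2 (0.51), and it turned the sign of Tff1, Tff2 and Ctse. In C57Bl6 minus naive the 5 members that rose passed with the covariate too.

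The SOX17OE lines were first checked for Sox17, the endoderm transcription factor that the construct carries. It had 22.2, 15.4 and 24.4 CPM in RAG2KO, 18.4, 12.4 and 74.3 CPM in C57Bl6, 72.7 CPM in SOX17OE constitutive, 4.78 CPM in SOX17OE inducible and 0.214, 0.0438 and 0.0477 CPM in naive libraries. Both lines were above all naive libraries, the constitutive one near the highest tumour-derived library and the inducible one below all of them. Reads of the construct and of the cell's own gene cannot be told apart. Each line is 1 library, so tests treat the lines together and assume that a lone library varies like the other groups.

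In the SOX17OE lines several members were well below their levels in tumour-derived organoids. Against naive, no member was called higher in the SOX17OE lines by edgeR or limma voom, where 6.77% of all tested genes were higher, while DESeq2 called 1 (Aqp5) and 1 passed at an unadjusted p under 0.05. Only Vsig1 was called lower, where 5.92% of tested genes were lower. Against the tumour-derived organoids, 5 of the 10 members (Aqp5, Onecut2, Tff1, Vsig1 and Ctse) were lower, where 6.73% of tested genes were lower. None was higher (0 by edgeR, DESeq2 and limma voom, and 0 at an unadjusted p under 0.05), where 4.9% of tested genes were higher. Both comparisons use the same SOX17OE libraries.

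Aqp5 had 1.79 CPM in SOX17OE constitutive (31 counts) and 0.874 CPM in SOX17OE inducible (15 counts), against 0, 0.0876 and 0.286 CPM in naive libraries. Both lines were above every naive library and below every tumour-derived one. The lines together gave a log2 fold change of 3.12 (SE 1.0, adjusted p = 0.0706) against naive, with 3.63 for the constitutive and 2.61 for the inducible line. The call was reached with DESeq2 (adjusted p = 2.76e-04), in a fit of only the groups compared (0.0288) and without RAG2KO replicate 1 (0.0417) or 2 (0.0404). Without naive replicate 3 the value was 4.36 (adjusted p = 0.116). Against the tumour-derived groups it was -5.00 (SE 0.63, adjusted p = 0.002).

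Onecut2 had 0.346 CPM in SOX17OE constitutive and 0.525 CPM in SOX17OE inducible, below all 3 naive libraries, which held 0.833 to 0.953 CPM. The lines gave -1.07 against naive (SE 0.84, adjusted p = 0.421) and -7.16 against tumour-derived organoids (SE 0.70, adjusted p = 5.99e-04). This was the largest difference among the members in that comparison, and no left-out library ended the call.

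Tff1 had 1.21 CPM in SOX17OE constitutive (21 counts) and 0.233 CPM in SOX17OE inducible (4 counts). Its difference from naive did not pass (log2 2.05, SE 1.51, adjusted p = 0.392). Against tumour-derived organoids it was -4.41 (SE 1.13, adjusted p = 0.0376). Leaving out either line or any naive library ended that call (adjusted p 0.0557 to 0.222), as did limma voom (0.182), no filter (0.0746), a fit of the compared groups alone (0.0894) and the Rn45s covariate (0.0533). The value was -3.24 without the inducible line and -5.58 without the constitutive line, and it was -3.74 without RAG2KO replicate 2. Ctse had 1.96 CPM in the constitutive and 0.35 CPM in the inducible line, so that the constitutive line lay above all naive libraries and the inducible one among them. It did not pass against naive (log2 1.20, SE 1.42, adjusted p = 0.604). Against tumour-derived organoids it was -5.01 (SE 1.08, adjusted p = 0.02), a call that ended without either line (adjusted p = 0.0639 without the constitutive and 0.138 without the inducible line) or with limma voom (0.116), no filter (0.0568) or only the groups compared (0.0545). Leaving out C57Bl6 replicate 1 gave -4.40, leaving out the constitutive line -6.24 and leaving out the inducible line -3.78.

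Vsig1 had 3 counts (0.173 CPM) in SOX17OE constitutive and 7 counts (0.408 CPM) in SOX17OE inducible, against 3.36, 3.16 and 4.72 CPM in naive libraries. Both lines were far below every other library. The log2 fold change was -3.78 against naive (SE 0.90, adjusted p = 0.0265) and -4.50 against tumour-derived organoids (SE 0.88, adjusted p = 0.0126). Leaving out either line ended both calls. Against naive the adjusted p was 0.192 without the constitutive line (log2 -3.18) and 0.0551 without the inducible line (log2 -4.38). It was also lost without naive replicate 2 (0.0628) or 3 (0.0711), with limma voom (0.12) and with the Rn45s covariate (0.0528). Against tumour-derived organoids the adjusted p was 0.0821 without the constitutive line, 0.055 without the inducible line (log2 -5.10) and 0.0901 with limma voom, and the value was -3.90 without C57Bl6 replicate 1. In the fit without a filter Muc6 was also lower in the lines than in naive organoids (log2 -4.43, SE 1.26, adjusted p = 0.049), on 1 count in the lines and 26 in naive libraries. Tff2, Anxa10 and Cldn18 had at most 4 counts in either line.

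**Figure D3:**
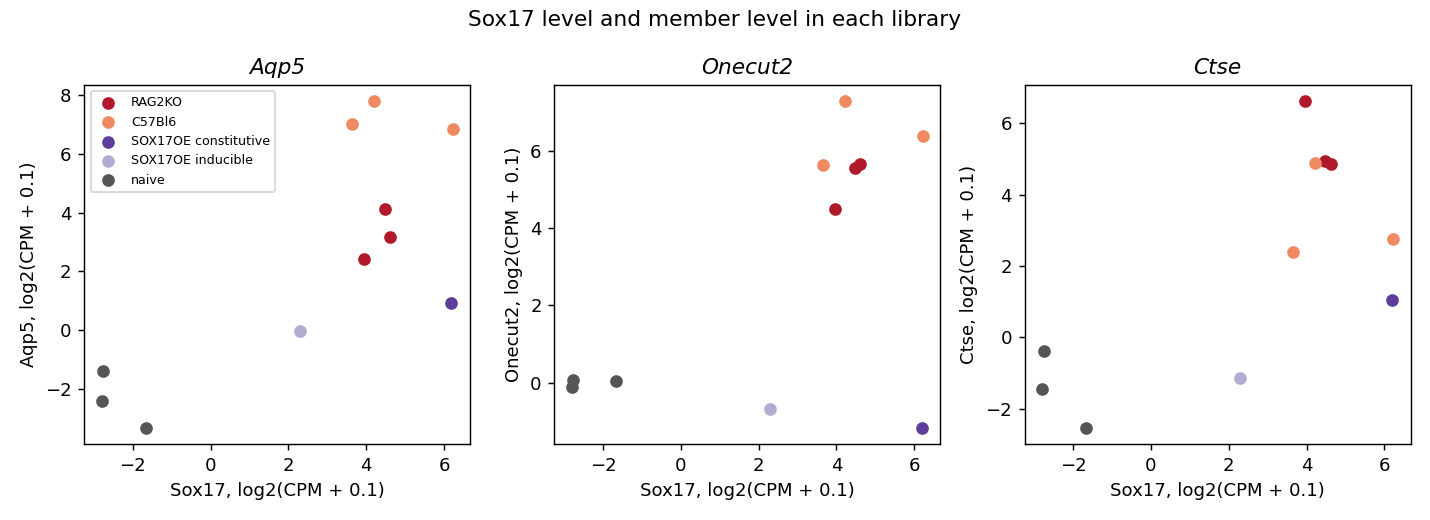
Level of Aqp5, Onecut2 and Ctse (vertical axes) against the level of Sox17 (horizontal axis) in each of the 11 libraries, both as log2(CPM + 0.1), coloured by group. SOX17OE constitutive has 72.7 CPM of Sox17, close to the highest C57Bl6 library, and 0.346 CPM of Onecut2, below the naive libraries.

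Other gastric genes were read from lists of cell types, which held 47 genes with a row, of which 25 were tested and 7 were at 0 in every library. Of 6 tested genes of surface and gland mucous cells besides the members, 5 rose in RAG2KO and 5 in C57Bl6 organoids against naive (16% and 9.5% of all tested genes rose), with median log2 fold changes of 4.59 and 5.12 against 0.02 over all tested genes in both comparisons. Leaving out single libraries moved the number that rose between 3 and 6 in RAG2KO and between 2 and 6 in C57Bl6. The list held 11 genes, of which Gkn2, Capn8, Capn9, A4gnt and Sult1c2 had too few reads to be tested. Gkn1, Gkn3, Dpcr1 and Psca had at most 7 counts in any naive library. Gkn3 and Dpcr1 reached 10 counts only in tumour-derived libraries, so they entered the test through the groups where they were high. The number that rose and the medians carry this selection. Dpcr1, a mucin-like gene, had 2.97, 0.876 and 2.31 CPM in RAG2KO libraries, 9.43, 6.28 and 6.06 CPM in C57Bl6 libraries and 0.0715, 0 and 0.191 CPM in naive libraries. No groups overlapped, and the log2 fold change was 4.45 (SE 0.77, adjusted p = 0.00327) in RAG2KO and 6.27 (SE 0.78, adjusted p = 7.71e-04) in C57Bl6. Without naive replicate 2 these were 3.81 and 5.64, and without naive replicate 3 they were 5.86 and 7.69.

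Psca, a surface antigen of stomach and bladder epithelium, had 2.43, 14 and 2.62 CPM in RAG2KO libraries, 2.67, 6.34 and 2.83 CPM in C57Bl6 libraries and 0.357, 0.0438 and 0.334 CPM in naive libraries. Replicate 2 of each tumour group was the highest, as for Tff1. It rose by 4.73 (SE 0.93, adjusted p = 0.00589) in RAG2KO, or 3.40 without RAG2KO replicate 2. In C57Bl6 it rose by 4.04 (SE 0.92, adjusted p = 0.0165), a call that ended without naive replicate 1 (0.0546) or 2 (0.0619).

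Gkn3, a gastrokine of gland mucous cells, had 3.03, 3.33 and 1.87 CPM in RAG2KO libraries, 11.7, 0.561 and 2.27 CPM in C57Bl6 libraries and 1 count in all naive libraries. C57Bl6 replicate 1 was far above the other C57Bl6 libraries. The ratio to naive was 159 in RAG2KO (95% counting interval 28.0 to 6324; adjusted p = 0.00728) and 283 in C57Bl6 (50.4 to 11230; adjusted p = 0.00614). Without C57Bl6 replicate 1 the C57Bl6 ratio was 84.5. Naive replicate 3 held that count; with it left out, Gkn3 was at least 15.9-fold higher in RAG2KO and at least 28.0-fold higher in C57Bl6, against the floor of 3 counts per library. Gkn1, the gastrokine of surface cells, named after its values were seen, was called in both (adjusted p = 0.0214 in RAG2KO and 0.0367 in C57Bl6), but not without any 1 of the naive libraries. Its call also ended without RAG2KO replicate 2 (0.0606) and without C57Bl6 replicate 1 (0.0994), each of which held most of the counts of its group.

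Muc1, a transmembrane mucin, averaged 7.46 CPM in C57Bl6 and 0.386 CPM in naive organoids (log2 4.2, SE 0.90, adjusted p = 0.0126), and it was 2.65 without C57Bl6 replicate 1. That call ended without naive replicate 1 or 2 (adjusted p = 0.0596 in each). Fut2, the fucosyltransferase of secreted mucins, averaged 76.5 CPM in RAG2KO and 40.0 CPM in naive organoids (log2 0.94, SE 0.24, adjusted p = 0.0187), a call that ended without RAG2KO replicate 3 (0.0565) or any naive library (0.0507 to 0.0677).

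Genes of the acid and enzyme glands were mostly at or near 0. For the counts that follow, 16% of all tested genes rose and 13.3% fell in RAG2KO against naive. In C57Bl6 against naive 9.5% rose and 5.85% fell. Of 4 tested chief cell genes, edgeR called 0 in RAG2KO organoids against naive (DESeq2 1 higher and 1 lower, limma voom 1 lower, and 1 each way at an unadjusted p under 0.05). In C57Bl6 1 rose, the receptor gene Tnfrsf19, which averaged 137 CPM in C57Bl6 and 46.7 CPM in naive organoids (log2 1.56, SE 0.21, adjusted p = 0.00118). Tnfrsf19 was thus well above 0 in naive organoids too. The chief cell genes Pga5, Gif, Lipf and Chia had too few reads to be tested. Of 3 tested parietal cell genes, 1 rose in both. This was Slc26a9, a chloride transporter of stomach and airway, with 3.71, 2.63 and 2.74 CPM in RAG2KO libraries, 9.22, 10.5 and 13 CPM in C57Bl6 libraries and 0.214, 0 and 0.191 CPM in naive libraries. The 3 groups did not overlap. Against naive the log2 fold change was 4.52 (SE 0.61, adjusted p = 0.001) in RAG2KO and 6.37 (SE 0.62, adjusted p = 2.08e-04) in C57Bl6, and without naive replicate 2 it was 3.86 and 5.71. RAG2KO minus C57Bl6 was -1.85 (SE 0.45, adjusted p = 0.0179), as for Aqp5 lower in RAG2KO, and not passed without RAG2KO replicate 3 (0.0557) or C57Bl6 replicate 3 (0.0622).

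Of 11 foregut transcription factors tested, edgeR, DESeq2 and limma voom called 0 in RAG2KO against naive. At an unadjusted p under 0.05, 2 were higher. Of all tested genes 16% rose and 13.3% fell in that comparison. In C57Bl6 edgeR called 2 higher and 0 lower (DESeq2 2 and 1, limma voom 1 and 0, unadjusted 3 and 1). There 9.5% of all tested genes rose and 5.85% fell. The list had median log2 fold changes of 0.40 in RAG2KO and 0.16 in C57Bl6. Gata5, an endoderm factor, had 3, 2 and 1 counts in RAG2KO libraries, 410, 16 and 57 counts in C57Bl6 libraries, and 1, 0 and 0 counts in naive libraries. Its ratio to naive in C57Bl6 was 492 (95% counting interval 87.9 to 19481; adjusted p = 0.00653), and 112 without C57Bl6 replicate 1. Gata5 reached the filter's 10 counts only in C57Bl6 libraries, so it entered the test through the group where it was high. The number of factors called higher in C57Bl6 carries this selection. The naive count was in replicate 1, and with that library left out Gata5 was at least 61.4-fold higher in C57Bl6 against the floor. Sox2, the factor of the foregut and stomach, named after its values were seen, had 362 counts in RAG2KO replicate 2 and at most 2 in any other library.

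**Figure D4:**
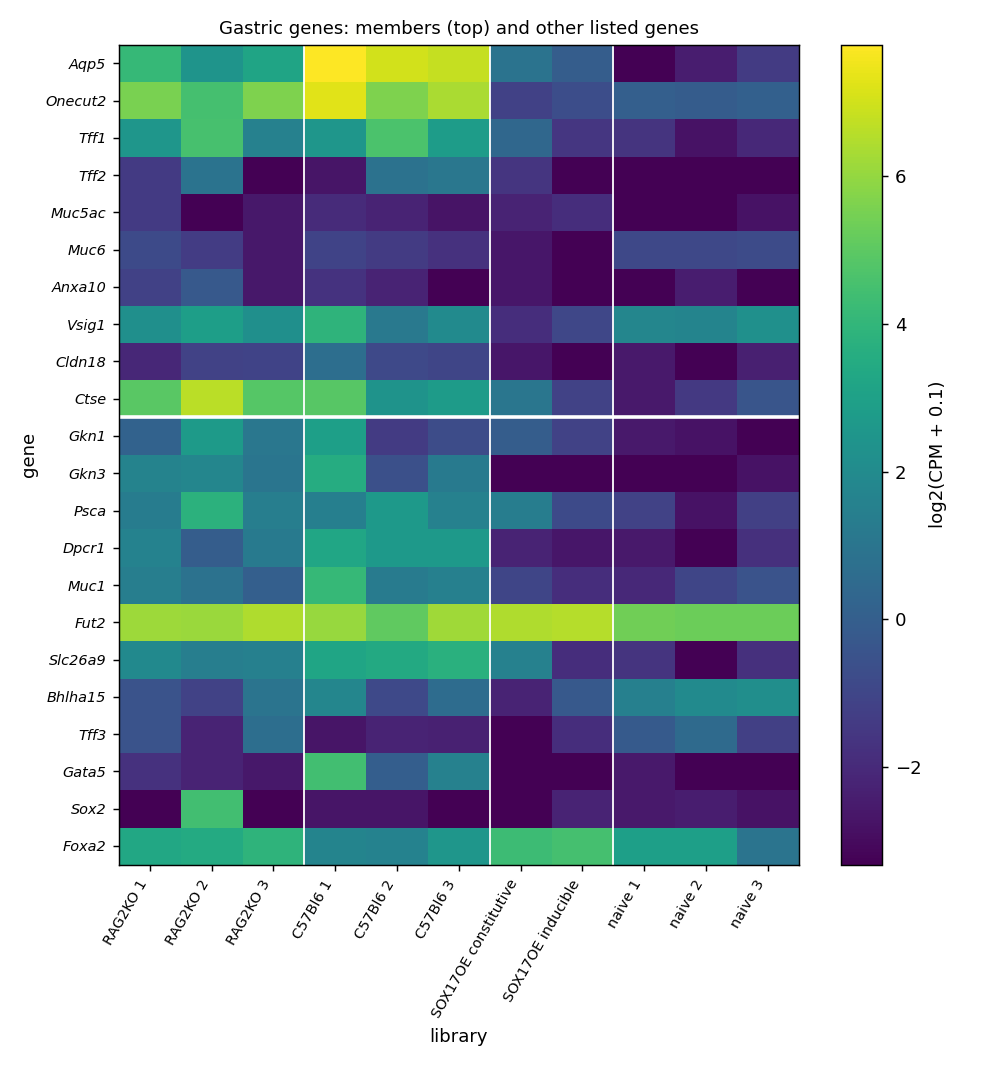
Heat map of log2(CPM + 0.1) for the 10 members (above the white line) and 12 other gastric and foregut genes (below it) in the 11 libraries, in group order from RAG2KO to naive. RAG2KO replicate 2 is the brightest of its group for Tff1, Tff2, Ctse, Gkn1, Psca and Sox2, and C57Bl6 replicate 1 is the brightest of its group for Gkn1, Gkn3, Muc1 and Gata5.

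Genes of intestinal identity moved the other way. Of 13 tested, 5 fell in RAG2KO and 8 in C57Bl6, and none rose in either by edgeR, DESeq2 or limma voom or at an unadjusted p under 0.05 (0 each). Over all tested genes 13.3% fell in RAG2KO and 5.85% in C57Bl6. The median log2 fold changes of the list were -0.57 in RAG2KO and -1.21 in C57Bl6. Leaving out single libraries moved the number that fell between 2 and 7 in RAG2KO and between 6 and 9 in C57Bl6. Cdx2, the master factor of intestinal identity, averaged 48.5 ± 8.89 CPM in RAG2KO, 51.1 ± 8.31 CPM in C57Bl6 and 118 ± 24.7 CPM in naive organoids (SD, n = 3 each). Both tumour groups lay below all naive libraries, with log2 fold changes of -1.29 (SE 0.20, adjusted p = 0.00181) and -1.21 (SE 0.20, adjusted p = 0.00317). Its relative Cdx1 averaged 7.52 CPM in RAG2KO, 0.522 CPM in C57Bl6 and 12.4 CPM in naive organoids, and fell by 4.54 on the log2 scale in C57Bl6 (SE 0.59, adjusted p = 0.00104). In the SOX17OE lines 1 of 13 rose and 8 fell against naive, where 6.77% of all tested genes rose and 5.92% fell. The number that fell ran between 0 and 10 with single libraries left out. Without the constitutive line, Cdx1 (adjusted p = 0.332) and Cdx2 (0.724) did not pass there.

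Relatives of the members were counted in families that include the members themselves. Over all tested genes, 16% rose and 13.3% fell in RAG2KO, and 9.5% rose and 5.85% fell in C57Bl6. Of 7 tested aquaporin genes, 1 rose and 1 fell in RAG2KO and 3 rose and 1 fell in C57Bl6 against naive. The gene that fell in both was Aqp4, a water channel of basolateral membranes, which averaged 0.0208 CPM in RAG2KO, 0.0168 CPM in C57Bl6 and 1.26 CPM in naive organoids. Of 12 tested claudin genes, 3 rose and 2 fell in RAG2KO and 3 rose and 1 fell in C57Bl6. Cldn2, a pore-forming claudin, averaged 82.3 CPM in RAG2KO, 250 CPM in C57Bl6 and 19.7 CPM in naive organoids, and rose by 2.06 (SE 0.45, adjusted p = 0.0101) in RAG2KO and 3.66 (SE 0.48, adjusted p = 0.00133) in C57Bl6. Without C57Bl6 replicate 1 the C57Bl6 value was 2.97. Of 10 tested aspartic protease and cathepsin genes, 6 rose in RAG2KO and 5 in C57Bl6, among them Bace1, the beta-secretase. Bace1 averaged 16.3 CPM in RAG2KO, 86.4 CPM in C57Bl6 and 3.67 CPM in naive organoids (log2 2.13, SE 0.30, adjusted p = 0.00118 in RAG2KO, and 4.54, SE 0.32, adjusted p = 3.23e-05 in C57Bl6).

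The genes most like each member across the 11 libraries were taken from 12646 tested genes by Pearson correlation of log2(CPM + 1), as a description over libraries that share 5 groups. Aqp5 was most like Dpcr1 (r = 0.985), Gpx3 (0.982) and B4galt2 (0.981). Onecut2 was most like 1110028F11Rik (0.99), Ociad2 (0.982) and Ttll7 (0.981). Tff1 was most like Sema4f (0.991), Fn1 (0.976) and Gm19705 (0.966). Ctse was most like Tnfaip8 (0.974), Arf5 (0.969) and Fblim1 (0.968), and Vsig1 most like Efnb1 (0.963), Itga2 (0.956) and Adm (0.944). Tff2 came nearest to Chst12 (0.978), Anxa10 to Bpgm (0.962) and Cldn18 to Ush1g (0.965), each on few counts. Among the members themselves, r ran between 0.0943 (Tff2 and Vsig1) and 0.91 (Aqp5 and Onecut2).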

How the data were processed

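The 11 libraries, in 5 groups, hold poly(A) RNA-seq. Per the labels' protocols, RNA isolation used Ambion PureLink and library preparation used the poly(A) and Ultra II Directional kits of NEBNext. The authors deposited RSEM expected counts per gene, made with Bowtie and the mm9 build, per the submitters' processing notes. Neither tool versions nor the use of strand in counting is stated in the sources used here. Of the expected counts, 25.2% were not whole, and all were rounded to whole numbers. Library totals were 14109121 to 22154408.

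The members, gene lists, comparisons and alternatives were chosen with earlier results of these data known. Genes were filtered with filterByExpr (minimum count 10, minimum total 15), then TMM-scaled and tested by edgeR 4.0.16 (R 4.3.3; quasi-likelihood, robust). One fit held all 11 libraries, each in its group. Its common dispersion of 0.0641 equals a BCV of 25.3%; residual degrees of freedom were 6, and prior ones 4.16 at the median. Tests were two-sided, with Benjamini-Hochberg adjustment over all tested genes and a threshold of 0.05. The SOX17OE comparisons use the mean of both lines, and the tumour-derived reference is the mean of RAG2KO and C57Bl6. Standard errors were taken as |log2 fold change| over the root of the F statistic. Where a group held 1 to 3 counts, the ratio is that of summed counts over summed library sizes, with a 95% counting interval. Where it held 0, the lower bound is the mean CPM over the mean floor of 3 counts per library. The fit was tested on simulated data. Named genes are the members, Sox17, up to 4 called members of each other list by adjusted p, the 3 genes most like each member and the nearest neighbours, with exceptions said where they occur. Alternatives were DESeq2 size factors, upper quartile scaling, no filter, a minimum of 1 CPM in 3 libraries, a non-robust fit, the DESeq2 1.42.0 Wald test, limma 3.58.1 voom, a Rn45s covariate, fits restricted to the compared groups, a replicate number block and each library left out. Counting ratios, bounds and list counts with a library left out, and list counts by other tools, were chosen after seeing the data. Exon lengths and neighbours came from a GRCm38 annotation by gene name. RefSeq promoters were found for 5 of the 10 members. A few listed items are not reported here.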

Additional observations from a re-analysis of the deposited data

Results flagged for a closer look

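Of the tested members, 2 were called between the recipient strains, and 1 of these calls (Onecut2) did not hold under most alternatives. Aqp5 had a log2 difference of -3.88 between RAG2KO and C57Bl6 organoids (adjusted p = 0.00252), with 10.5 ± 6.24 CPM in RAG2KO and 154 ± 57.7 CPM in C57Bl6 (SD, n = 3 each), and the libraries did not overlap. It kept its direction and passed with each of the 11 libraries left out (-4.44 to -3.53), and it did not pass with the Rn45s share as a covariate (-3.91, adjusted p = 0.507). Onecut2 had a log2 difference of -1.27 (adjusted p = 0.0485), with 40.0 ± 15.2 CPM in RAG2KO and 96.1 ± 54.1 CPM in C57Bl6, and the libraries overlapped. That call was lost on leaving out any of 8 of the 9 naive and tumour-derived libraries (adjusted p 0.0695 to 0.139), and with DESeq2 size factors (0.0513), upper quartile scaling (0.0604), limma voom (0.0525), no filter (0.0856), the compared groups alone (0.112) and the Rn45s covariate (0.51). The Rn45s share was higher in every RAG2KO library than in every C57Bl6 library, and its part in these differences cannot be told apart from the recipient.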

How the results depend on the processing

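In the comparison of C57Bl6 with naive organoids the number of members called higher was 3 with limma voom. With a Rn45s covariate, RAG2KO minus naive called 148 genes and 1 member higher, RAG2KO minus C57Bl6 called 2 genes and 0 members lower, and SOX17OE minus naive called 267 genes and 0 members lower. In RAG2KO minus C57Bl6, 1 member was called higher with limma voom. There 1 member was called lower with DESeq2 size factors, upper quartile scaling, no filter, limma voom and only the compared groups. In SOX17OE minus naive, DESeq2 called 2711 genes and 1 member higher, and a fit of only the compared groups 2630 genes and 1 member higher, while no filter gave 2 members lower and limma voom 0. In SOX17OE minus tumour-derived, DESeq2 called 2417 genes and the compared groups alone 912, and the members lower were 3 with no filter, 2 with limma voom and 3 with the compared groups alone. The cause of these shifts was not tested.

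Leaving out each library gave 2041 to 4184 genes in RAG2KO minus naive (4 to 5 members higher), 1030 to 2328 in C57Bl6 minus naive (4 to 6 higher) and 1857 to 3311 in RAG2KO minus C57Bl6 (0 to 1 higher, 1 to 2 lower). It gave 85 to 1931 genes in SOX17OE minus naive (0 to 1 member higher, 0 to 1 lower) and 674 to 1599 in SOX17OE minus tumour-derived (2 to 5 lower). The 85 genes are those without SOX17OE constitutive; without naive replicate 2 or 3 there were 450 or 571. In RAG2KO minus naive the lowest count is without naive replicate 2, and in SOX17OE minus tumour-derived without the constitutive line.

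Signs turned for values that had not passed. In RAG2KO minus naive Vsig1 was -0.90 with the Rn45s covariate. In RAG2KO minus C57Bl6 the covariate gave 1.86 for Tff1, 5.85 for Tff2 and -0.38 for Ctse, and limma voom 0.10 for Vsig1. In SOX17OE minus naive Anxa10 was 0.11 with limma voom. With libraries left out, Vsig1 ran from -0.31 to 1.31 in C57Bl6 minus naive. In RAG2KO minus C57Bl6, Tff1 ran from -1.56 to 0.78, Vsig1 from -0.76 to 0.87 and Sox17 from -1.17 to 0.42. In SOX17OE minus naive, Anxa10 ran from -2.54 to 1.59, Cldn18 from -3.10 to 0.11 and Ctse from -0.031 to 2.43, and Sox17 in SOX17OE minus tumour-derived from -2.49 to 1.44. Sox17 in SOX17OE minus naive did not pass without the constitutive line (5.66, adjusted p = 0.0722) or with limma voom (0.0588).

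Between libraries with the same replicate number, correlations of deviations from the group mean had mixed signs. They were 0.34, -0.21 and 0.12 for RAG2KO with naive and -0.20, -0.06 and -0.23 for C57Bl6 with naive. For RAG2KO with C57Bl6 they were -0.25, 0.13 and 0.09. Deviations in a group of 3 libraries sum to 0, so these correlations depend on each other. Whether the replicate numbers pair the libraries was not tested with them. With the replicate number as a block, 3453, 1737 and 2688 genes were called in these 3 comparisons, with 4, 4 and 0 members higher and 0, 0 and 2 lower. No paired analysis was possible for the SOX17OE comparisons because the lines carry no replicate number. Depth limits Aqp5, Tff1, Tff2, Muc5ac, Muc6, Anxa10 and Cldn18, whose naive libraries hold at most 10 counts each. For Aqp5 and Tff1 this concerns the naive level and so the size of the fold change.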

Other observations

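Some keratins and cornified envelope genes of the squamous foregut (oesophagus and forestomach) also rose. Of 6 tested, 5 rose in RAG2KO organoids and 4 in C57Bl6 organoids against naive, where 16% and 9.5% of all tested genes rose. Their median log2 fold changes were 2.61 and 2.66, against 0.02 over all tested genes. The squamous genes Trp63, Krt5 and Sprr3 had too few reads to be tested. Krt15, a basal keratin, averaged 87.5 CPM in RAG2KO, 5.32 CPM in C57Bl6 and 4.53 CPM in naive organoids (log2 4.28 in RAG2KO minus naive, SE 0.26, adjusted p = 2.13e-05). Between the tumour groups, RAG2KO minus C57Bl6 was 4.04 (SE 0.25, adjusted p = 7.49e-05), the opposite direction to Aqp5. In the SOX17OE lines Krt15 averaged 209 CPM (log2 5.23 over naive, SE 0.28, adjusted p = 2.01e-05), with 4.24 without the constitutive and 6.22 without the inducible line. Krt4, a suprabasal keratin, averaged 499 CPM in RAG2KO, 1048 CPM in C57Bl6 and 166 CPM in naive organoids, and rose in both (log2 1.59, adjusted p = 0.00595, and 2.66, adjusted p = 7.89e-04).

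Of 6 tested genes from a list for the pancreas and bile ducts, 3 rose in each tumour group against naive. They were Spp1, a secreted phosphoprotein, Krt7, a ductal keratin, and Mmp7, a matrix protease. Krt7 already averaged 1346 CPM in naive organoids. Ptf1a and Cpa1 of that list had too few reads to be tested. Over all tested genes, 16% rose in RAG2KO and 9.5% in C57Bl6. Spp1 averaged 523 CPM in RAG2KO, 1129 CPM in C57Bl6 and 36.3 CPM in naive organoids (log2 3.85, SE 0.61, adjusted p = 0.00265, and 4.96, SE 0.64, adjusted p = 0.0013). Without C57Bl6 replicate 1 the C57Bl6 value was 4.34.

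Hdc, histidine decarboxylase of the gastric histamine cells and of mast cells, had 72 counts in SOX17OE constitutive and 45 in SOX17OE inducible, against 3, 5 and 1 in naive libraries (log2 4.33, SE 0.95, adjusted p = 0.0199). It had 1, 16 and 6 counts in RAG2KO and 1, 2 and 0 in C57Bl6 libraries. The call ended without the constitutive line (adjusted p = 0.118) and without naive replicate 2 (0.0683) or 3 (0.0722).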
